A study of Homo sapiens with 9 samples.

Results

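The olfactory receptor gene clusters are long stretches of the human genome in which genes for odorant receptors stand side by side. The 7 large ones, chosen by hg19 coordinates and not by any measured value, were followed here through nascent DNA counts from HCT116 and RPE1 cells. On chromosome 11 they ran from 4380001 to 6220000 on the short arm, which also holds the beta globin genes, and on the long arm from 54980001 to 56600000 (proximal), 57750001 to 59300000 (mid) and 123600001 to 124450000 (distal). Chromosome 1 had a cluster near its end, from 247600001 to 248850000, and a further one from 158350001 to 159000000 (mid long arm), and chromosome 9 had the last, from 125220001 to 125600000. Together they took up 162 of the 60739 windows of 50 kb, and the 162 were among the 56728 windows that held enough reads to be kept.

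HCT116 is a colorectal carcinoma line, and RPE1 comes from the pigment epithelium of the retina and was made immortal with telomerase. Both were grown unsynchronised in the same medium with serum, and were given a pulse of EdU, a thymidine analogue that labels DNA made during the pulse. The labels name no other treatment and no genetic change. Labelled cells were sorted into early, mid and late S phase, and the labelled DNA of each fraction was pulled down and sequenced. HCT116 gave 1 set of 3 libraries and RPE1 gave 2 sets, labelled replicates 1 and 2, with no word on whether these came from separate cultures. Each line is a single cell line, so a difference between them is one between these cultures and not between tissues.

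DNA is copied in a set order during S phase, with open and transcribed chromatin usually copied early and compact, silent chromatin late. Olfactory receptors are odour sensors of the nose that signal through a G protein, and a mature olfactory neuron expresses a single receptor gene while the rest stay silent. Outside the nose the clusters lie in closed chromatin, and they are known as late replicating in many cell types. Receptors of the OR51, OR52 and OR56 families, found in the cluster on the short arm of chromosome 11, belong to class I, the kind first described in fish, while families such as OR2, OR5 and OR8 belong to class II.

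The clusters differ in which receptors they hold. Genes were named from the RefSeq annotation of GRCh38.p14 by following each neighbour of known cluster genes, so a gene's membership rests on neighbourhood and not on hg19 coordinates. The 7 runs held 387 receptor genes, of which 214 were protein-coding and 173 pseudogenes. The chromosome 11 short arm carried class I genes, with 25 coding genes of OR52, 23 of OR51 and 7 of OR56, and 48 receptor pseudogenes. Its other genes included the beta globin genes HBB, HBD, HBG1, HBG2 and HBE1, between OR51V1 and OR51AB1P, and the antiviral factors TRIM5 and TRIM22. The proximal long arm had 46 coding genes and 60 pseudogenes, with OR5, OR8 and OR4 as its main families, and the mid long arm had 21 of each. The distal long arm held 22 coding genes, 11 of them OR8 and 7 OR10. At the end of chromosome 1 lay 43 coding genes, 33 of them OR2, and in the middle of its long arm 13 coding genes of OR6 and OR10. Chromosome 9 held 14 coding genes, 13 of them OR1, and 1 pseudogene.

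The start regions of these genes shared a base composition that no choice of cluster had used. RefSeq sequences from 250 bases before to 50 bases after the annotated start were found for 174 of the 214 coding genes. Their median GC content was 37.7%, against 62.7% over 15842 protein-coding genes, and 95.4% of them, against 17.8%, lay under 50% GC. The median number of CpG dinucleotides was 1, against 22. The letters TATAAA, searched on both strands, stood in 35.1% of receptor starts and in 9.63% of all starts, and TAATTA, the core letters bound by many homeodomain factors, in 23.6 and 3.34%. These matches describe letters and not sites of binding, and the annotated start of a receptor gene can be its coding start. AT-rich stretches hold AT-rich letters more often, and this was not tested. One start region is shown for the cluster in which the lines were farthest apart (OR52A5, chr11:5138307-5138606, minus strand), one for the cluster most taken up by a single library (OR4S2, chr11:55648077-55648376, plus strand) and one for the cluster least taken up by it (OR1J1, chr9:122477877-122478176, minus strand). Each is the gene nearest its cluster's median GC content, with GRCh38.p14 coordinates from RefSeq, and capitals mark CG dinucleotides and, in OR1J1, the letters TATAAA.
OR52A5: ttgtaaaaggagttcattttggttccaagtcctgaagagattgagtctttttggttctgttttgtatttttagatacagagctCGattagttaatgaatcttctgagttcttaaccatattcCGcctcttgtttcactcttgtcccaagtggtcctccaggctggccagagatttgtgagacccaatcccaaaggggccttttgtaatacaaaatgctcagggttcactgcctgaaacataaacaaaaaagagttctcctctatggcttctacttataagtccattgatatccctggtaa
OR4S2: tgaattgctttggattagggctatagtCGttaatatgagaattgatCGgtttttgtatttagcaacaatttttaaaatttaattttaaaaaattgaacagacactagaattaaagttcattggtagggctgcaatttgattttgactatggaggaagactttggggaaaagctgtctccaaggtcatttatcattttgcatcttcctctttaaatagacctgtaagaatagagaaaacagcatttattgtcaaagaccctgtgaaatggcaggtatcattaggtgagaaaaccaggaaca
OR1J1: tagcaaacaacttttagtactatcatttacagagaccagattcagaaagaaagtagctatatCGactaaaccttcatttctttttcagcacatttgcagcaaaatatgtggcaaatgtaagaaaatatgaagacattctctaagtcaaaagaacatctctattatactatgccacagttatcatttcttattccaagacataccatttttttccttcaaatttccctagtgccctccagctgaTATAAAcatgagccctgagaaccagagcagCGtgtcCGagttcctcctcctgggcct
The stretches had 40.0, 33.3 and 37.7% GC and 2, 2 and 3 CG dinucleotides, so CpG was sparse in each of the 3 clusters, whichever library led it.

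The 9 libraries held between 6170299 and 22930078 reads. The deposited tables do not say which count column is which fraction, so the libraries are called A, B and C by column, and a letter stands for a position and not for early, mid or late. Reads of each library were scaled to equal totals, and the share of a library is its part of the scaled reads of its set in a window or cluster. Positions A and C lay at opposite ends of the main pattern in every set. That pattern is summarised as the leading axis, the first principal component of the 3 log2 values of a window, in SD of autosomal windows around the autosomal mean. Higher values lie toward C. The axis was fitted and scaled in each set apart, so a difference between sets is one between separately fitted axes. It held 82.9% of the variance in HCT116, 95.1% in RPE1 set 1 and 82.1% in RPE1 set 2. The weight of B on it was -0.207, -0.287 and 0.105 in the same order. The spread between the RPE1 sets is the replicate error available. It was wide for single shares, since the tenth percentile of the C share over autosomal windows was 14.6% in HCT116, 3.36% in RPE1 set 1 and 15.0% in RPE1 set 2. It was narrow for the axis, on which the RPE1 sets differed with an SD of 0.151 over the 162 cluster windows and by at most 0.418. One HCT116 set against 2 RPE1 sets allows no useful test, and no p-value was computed.

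The clusters led by library C in both lines, 3 of 7, were the chromosome 11 proximal long arm, the end of chromosome 1 and the chromosome 1 mid long arm. On the proximal long arm, C held 59.7% of scaled reads in HCT116, and 67.1 and 59.5% in RPE1 sets 1 and 2. At the end of chromosome 1 it held 51.3% in HCT116, against 62.0 and 54.2% in the RPE1 sets. On the chromosome 1 mid long arm it held 55.8% in HCT116, against 64.5 and 54.9%. In the first and the last of these HCT116 lay between the RPE1 sets, so the lines did not differ beyond the spread in the share of C. At the end of chromosome 1 HCT116 lay 2.85 points below the nearer RPE1 set, less than the 7.82 points between those sets.

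The chromosome 11 short arm and distal long arm were led by B in HCT116 and by C in RPE1. On the short arm the class I receptors and globin genes had 28.0, 41.2 and 30.9% of scaled reads in A, B and C in HCT116. The RPE1 sets had 17.5, 26.9 and 55.6%, and 17.6, 36.3 and 46.1%. The C share was thus 30.9% (95% Wilson interval 30.2 to 31.6% at 15930 reads, counting error only) in HCT116 and 50.9% ± 6.77 (SD, n = 2) in RPE1, and HCT116 lay 15.2 points below the nearer RPE1 set, more than the 9.57 points between those sets. On the distal long arm, a cluster of OR8 and OR10 genes, C held 34.0% (32.9 to 35.1%) in HCT116 and 53.0% ± 7.48 in RPE1, with 58.3 and 47.8% in its sets. HCT116 was 13.8 points below the nearer RPE1 set, against a gap of 10.6 points. In both clusters the share that C lacked in HCT116 was spread over A and B, each of which was above both RPE1 sets.

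Pooled over windows, the remaining clusters were led by B in all sets, though on chromosome 9 A was close to B in HCT116. On the chromosome 11 mid long arm B held 43.9% in HCT116, against 41.1 and 43.2% in the RPE1 sets, while C held 26.0%, against 36.2 and 33.3%. HCT116 lay 7.25 points below the nearer RPE1 set in C, and the RPE1 sets were 2.90 points apart. The OR1 genes of chromosome 9 had the lowest C share of the 7 clusters, with 19.4% in HCT116, against 19.7 and 26.1% in the RPE1 sets. There A held 39.8% in HCT116, against 33.9% in both RPE1 sets, and B held 40.8%, against 46.4 and 40.1%. The Wilson intervals of A and B in HCT116 overlapped, at 38.2 to 41.4% and 39.2 to 42.4%. By window A led 5 of the 8 in HCT116 and B led 3, so this cluster had no clear leader in that line. Receptor clusters were therefore not alike in their leading library in either line. Library A had a higher share in HCT116 than in both RPE1 sets in each of the 7 clusters, by 3.76 to 10.4 points over the nearer set, where the RPE1 sets differed by at most 1.12 points. Over windows, 88.9% of the 162 showed this, against 54.8% of all kept windows. C was lower in HCT116 than in both RPE1 sets in 113 (69.8%), against 34.6%. The tenth percentile of the A share over autosomal windows was also higher in HCT116, at 17.1%, than in the RPE1 sets, at 13.8 and 13.4%, and its part in these counts was not tested.

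**Figure D1:**
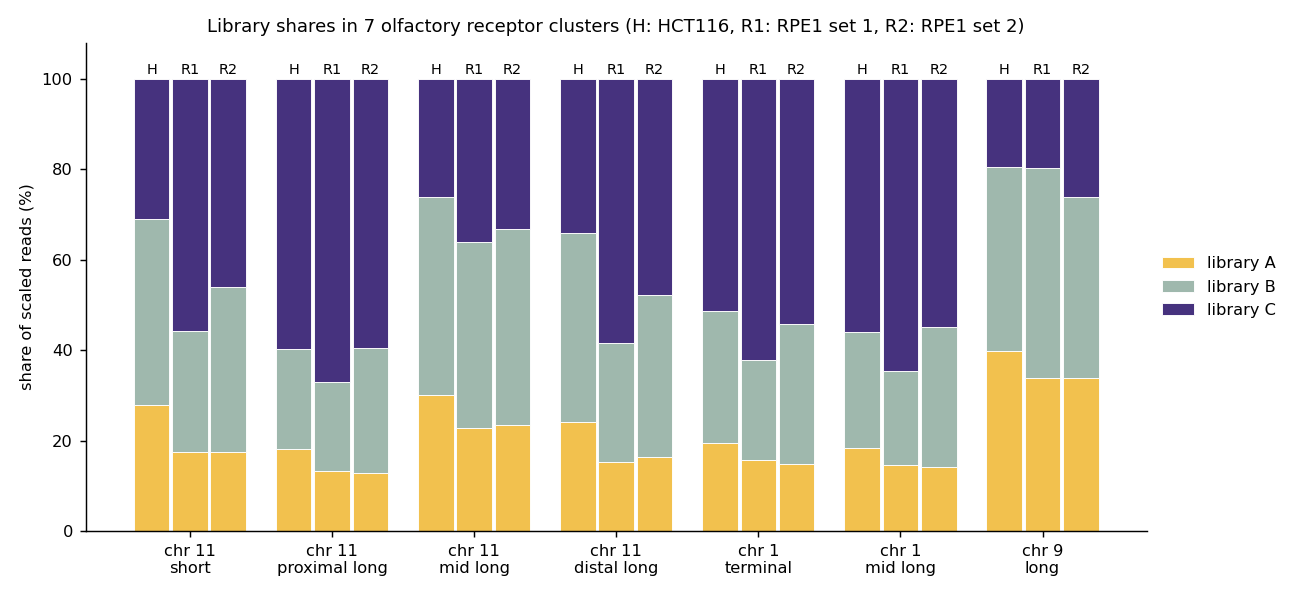
Share of scaled reads (%, y axis) of libraries A, B and C in each cluster (x axis), stacked, with 1 bar for HCT116 (H), RPE1 set 1 (R1) and RPE1 set 2 (R2). Library C takes over 50% of the bar in all sets at the chromosome 11 proximal long arm and both chromosome 1 clusters, and a smaller part in HCT116 than in RPE1 on the chromosome 11 short arm, at 30.9 against 55.6 and 46.1%.

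Single windows showed how even each cluster was. The same library led a window in all 3 sets for C in 81 of the 162 windows (50.0%), against 27.0% of all kept windows. For B this held in 27 (16.7%), against 14.6%, which is near the background. For A it held in 3 (1.85%), against 22.8%, so windows led by A throughout were scarcer in receptor clusters than in the genome as a whole. On the proximal long arm each of the 32 windows was led by C in all sets, and on the chromosome 1 mid long arm each of the 13. At the end of chromosome 1 there were 19 of 25, on the short arm 9 of 36, on the distal long arm 7 of 17, on the mid long arm of chromosome 11 there was 1 of 31, and on chromosome 9 there were 0 of 8. A further 33 windows (20.4%, against 9.1% of all kept windows) were led by B in HCT116 and by C in both RPE1 sets, a class chosen after its values were seen. Of these 19 lay on the chromosome 11 short arm and 6 on the distal long arm. Only windows led by C in RPE1 can enter this class, and they were commoner in the clusters. C led 125 and 114 of the 162 windows in RPE1 sets 1 and 2, against 21400 and 18788 of 53706 autosomal windows. The 20.4% is thus not read as an excess, and its dependence on those windows was not tested. Between the RPE1 sets the leader was at the same position in 92.0% of cluster windows.

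Most clusters stood out from their surroundings. Pooled over windows up to 1 Mb on each side, C was at least 10 points higher in the cluster than in its flanks in all 3 sets in 5 of 7 clusters, and lower by that much in 0. Of 2716 autosomal 1 Mb tiles under the same rule, 9.68% were higher and 8.69% lower. The tiles lie on a fixed grid, while the clusters are 0.38 to 1.84 Mb long with ends set by their receptor genes. The tiles are thus not matched to the clusters in length or bounds. At the end of chromosome 1 the C share was 51.3% in the cluster and 18.5% in its flanks in HCT116, 62.0 and 12.7% in RPE1 set 1, and 54.2 and 22.8% in RPE1 set 2, though 5 windows were left on its outer side. On the distal long arm the difference was 17.5 points in HCT116 and 39.1 ± 13.5 points in RPE1 (SD, n = 2), and on the short arm 12.5 points in HCT116 and 29.9 ± 12.0 in RPE1. For both of these the HCT116 difference was below that of either RPE1 set.

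The proximal long arm and the chromosome 1 mid long arm were higher than their flanks by 25.5 and 28.2 points in HCT116, and by 27.0 ± 7.93 and 21.4 ± 2.56 points in RPE1. The outer sides were not alike. Left of the proximal long arm cluster, towards the centromere gap, 6 kept windows had a C share of 63.5% in HCT116, against 64.9 and 64.5% in the RPE1 sets, as high as the cluster itself, and on its right C fell to 19.5% in HCT116, against 20.9 and 25.8% in RPE1. With 500 kb flanks, where those 6 windows weigh more, 4 clusters passed and this one did not, at 15.5 points in HCT116 and a mean of 11.1 in RPE1. The right side of the chromosome 1 mid long arm was also high in RPE1. From 200 to 300 kb outside it C was 66.7 and 56.2% in the RPE1 sets, against 64.5 and 54.9% in the cluster. In HCT116 it was 48.1% there, against 55.8% in the cluster. The chromosome 11 mid long arm and chromosome 9 did not pass, with 6.26 and 4.02 points in HCT116, and 11.2 and 13.2 points in RPE1 set 1 and 5.92 and 9.42 in RPE1 set 2.

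**Figure D2:**
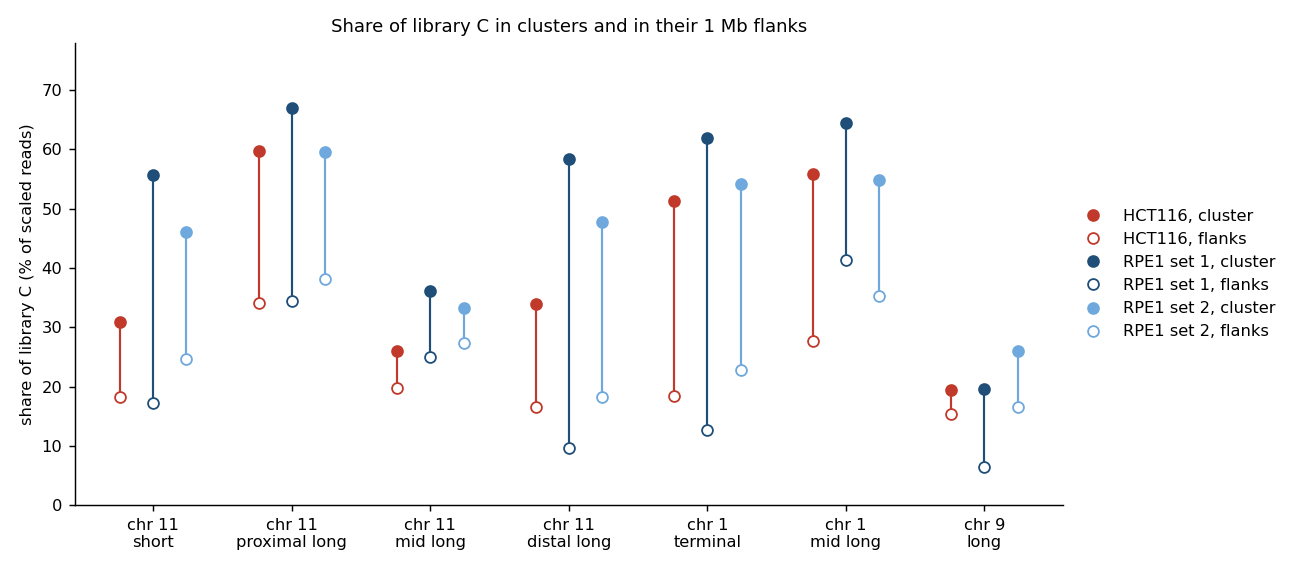
Share of library C (% of scaled reads, y axis) in each cluster (filled points) and in its 1 Mb flanks (open points), for HCT116 and RPE1 sets 1 and 2, with a line joining each pair. Filled points lie above open points throughout, by 4.02 points in HCT116 at chromosome 9 and by 49.3 points in RPE1 set 1 at the end of chromosome 1.

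Within the chromosome 11 short arm the profile was not flat. In RPE1 it had a pair of high stretches with a trough between them, from 5500001 to 5800000, in which 6 windows were led by A or B in both sets. The C share of the trough was 24.4% in HCT116, against 28.2 and 31.0% in the RPE1 sets, so here the lines were close. Its lowest window on the mean axis, from 5600001 to 5650000, had a C share of 22.9% in HCT116, against 21.6 and 26.1% in RPE1. Left of it, over 22 windows from 4400001 to 5500000, the window mean of C was 35.3% in HCT116, against 61.4 and 50.9% in the RPE1 sets. Right of it, over 8 windows from 5800001 to 6200000, it was 22.6% in HCT116, against 57.3 and 47.0% in the RPE1 sets. HCT116 thus had no high stretch there, its highest window there being 28.4%, while the lowest RPE1 windows there were 43.6 and 37.9%. The window from 6100001 to 6150000, where the lines were farthest apart on the axis in this cluster, had a C share of 16.7% in HCT116 and 56.2 and 45.9% in RPE1.

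HCT116 was led by C on the short arm in 9 windows, of which 7 were adjacent, from 4700001 to 5050000. Their C share was 43.5% in HCT116, against 65.4 and 53.8% in the RPE1 sets. The window highest on the mean axis lay among them, from 4950001 to 5000000, with 43.3% in HCT116 and 70.3 and 58.7% in RPE1. The beta globin genes encode the beta-type chains of embryonic, fetal and adult haemoglobin and are silent outside the red cell lineage. Their 3 windows, from 5200001 to 5350000, had a C share close to that of the whole cluster. Pooled, it was 32.4% in HCT116 and 57.3 and 48.2% in RPE1. The whole cluster had 30.9% in HCT116 and 55.6 and 46.1% in RPE1. A and B were less close in HCT116, with 31.8 and 35.8% in these windows and 28.0 and 41.2% in the whole cluster. By window C was 39.1, 29.4 and 27.2% in HCT116, against 57.7, 55.1 and 59.5% in RPE1 set 1 and 53.1, 45.8 and 45.5% in RPE1 set 2. C led the first of them in all sets, and the others in RPE1 alone.

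The distal long arm had a single arch. The 7 adjacent windows led by C in HCT116, from 123800001 to 124150000, had 41.8% in HCT116 and 66.6 and 59.1% in RPE1. The highest window on the mean axis, from 123850001 to 123900000, had a C share of 43.6% in HCT116 and 71.4 and 61.5% in RPE1, and the lowest on it, from 124400001 to 124450000, had 18.4% in HCT116 and 26.2 and 23.9% in RPE1. The widest difference between the lines on the axis was at the left end, from 123650001 to 123700000, where C held 24.1% in HCT116 and 54.9 and 43.6% in RPE1.

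The proximal long arm was the flattest cluster in RPE1. The SD of C over its windows was 6.70 points in HCT116, and 3.94 and 2.01 points in RPE1 sets 1 and 2, the lowest of the 7 clusters in each RPE1 set. The HCT116 spread lay at the right end, where the last window, from 56550001 to 56600000, had 39.0% in HCT116 and 65.7 and 59.2% in RPE1. On the axis that window was the lowest of the cluster in the mean of the 3 sets, and the one in which the lines were farthest apart. The highest window on the axis, from 55400001 to 55450000, had 66.9% in HCT116 and 70.6 and 61.3% in RPE1. One window at the left end of this cluster held 2151 reads in HCT116 and 2706 and 4365 in RPE1, more than any other cluster window, and the fullest 10 bins of 1 kb held 6.18% of the cluster's reads. Without the fullest 0.1% of bins the C share was 60.4% in HCT116 and 68.5 and 59.8% in RPE1.

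At the end of chromosome 1, C led 19 adjacent windows in HCT116, from 247650001 to 248600000, with 55.9% in HCT116 and 64.2 and 57.6% in RPE1. To the right of these the lines parted, and from 248750001 to 248800000 C held 29.5% in HCT116 and 56.7 and 47.7% in RPE1. Its highest window on the mean axis of the 3 sets, from 248500001 to 248550000, had a C share of 62.5% in HCT116 and 69.2 and 60.6% in RPE1, and its lowest on the mean axis, from 247600001 to 247650000, had 35.5% in HCT116 and 36.4 and 29.1% in RPE1. The chromosome 1 mid long arm showed the opposite order at its right end. From 158950001 to 159000000 C held 57.7% in HCT116 and 45.3 and 41.1% in RPE1, and here HCT116 was 0.684 SD above the RPE1 mean on the axis. The window was the lowest of that cluster on the mean axis, and the highest on it, from 158550001 to 158600000, had 57.5% in HCT116 and 75.0 and 61.1% in RPE1.

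On the chromosome 11 mid long arm, which holds OR5, OR4, OR9 and OR10 genes, C ranged over windows from 15.6 to 38.7% in HCT116, and from 6.26 to 61.5% and 17.7 to 46.6% in the RPE1 sets. Its highest window on the mean axis, from 57950001 to 58000000, had a C share of 33.9% in HCT116 and 61.5 and 45.9% in RPE1, and its lowest on the same scale, from 59250001 to 59300000, was led by A, with 44.4% of reads in HCT116 and 54.6 and 56.4% in RPE1. On the axis the lines were farthest apart from 59050001 to 59100000, where C held 16.1% in HCT116 and 28.0 and 29.2% in RPE1. In RefSeq the neighbours taken for this cluster formed 2 separate runs of receptor genes, with OSBP and PATL1 among the other genes. The runs were not placed on hg19, so these genes are not shown to lie inside the measured span. On chromosome 9 the highest window on the mean axis, from 125250001 to 125300000, had a C share of 20.3% in HCT116 and 35.4 and 28.5% in RPE1. Over windows C ranged from 15.7 to 23.4% in HCT116, and reached 35.4 and 30.7% in RPE1, so this cluster was nearly flat in HCT116. Its lowest window on the axis, from 125550001 to 125600000, was led by A in all sets, with 42.3% in HCT116 and 57.9 and 58.2% in RPE1. On the axis the lines were farthest apart in its first window, from 125200001 to 125250000, where C held 15.7% in HCT116 and 25.2 and 26.3% in RPE1.

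**Figure D3:**
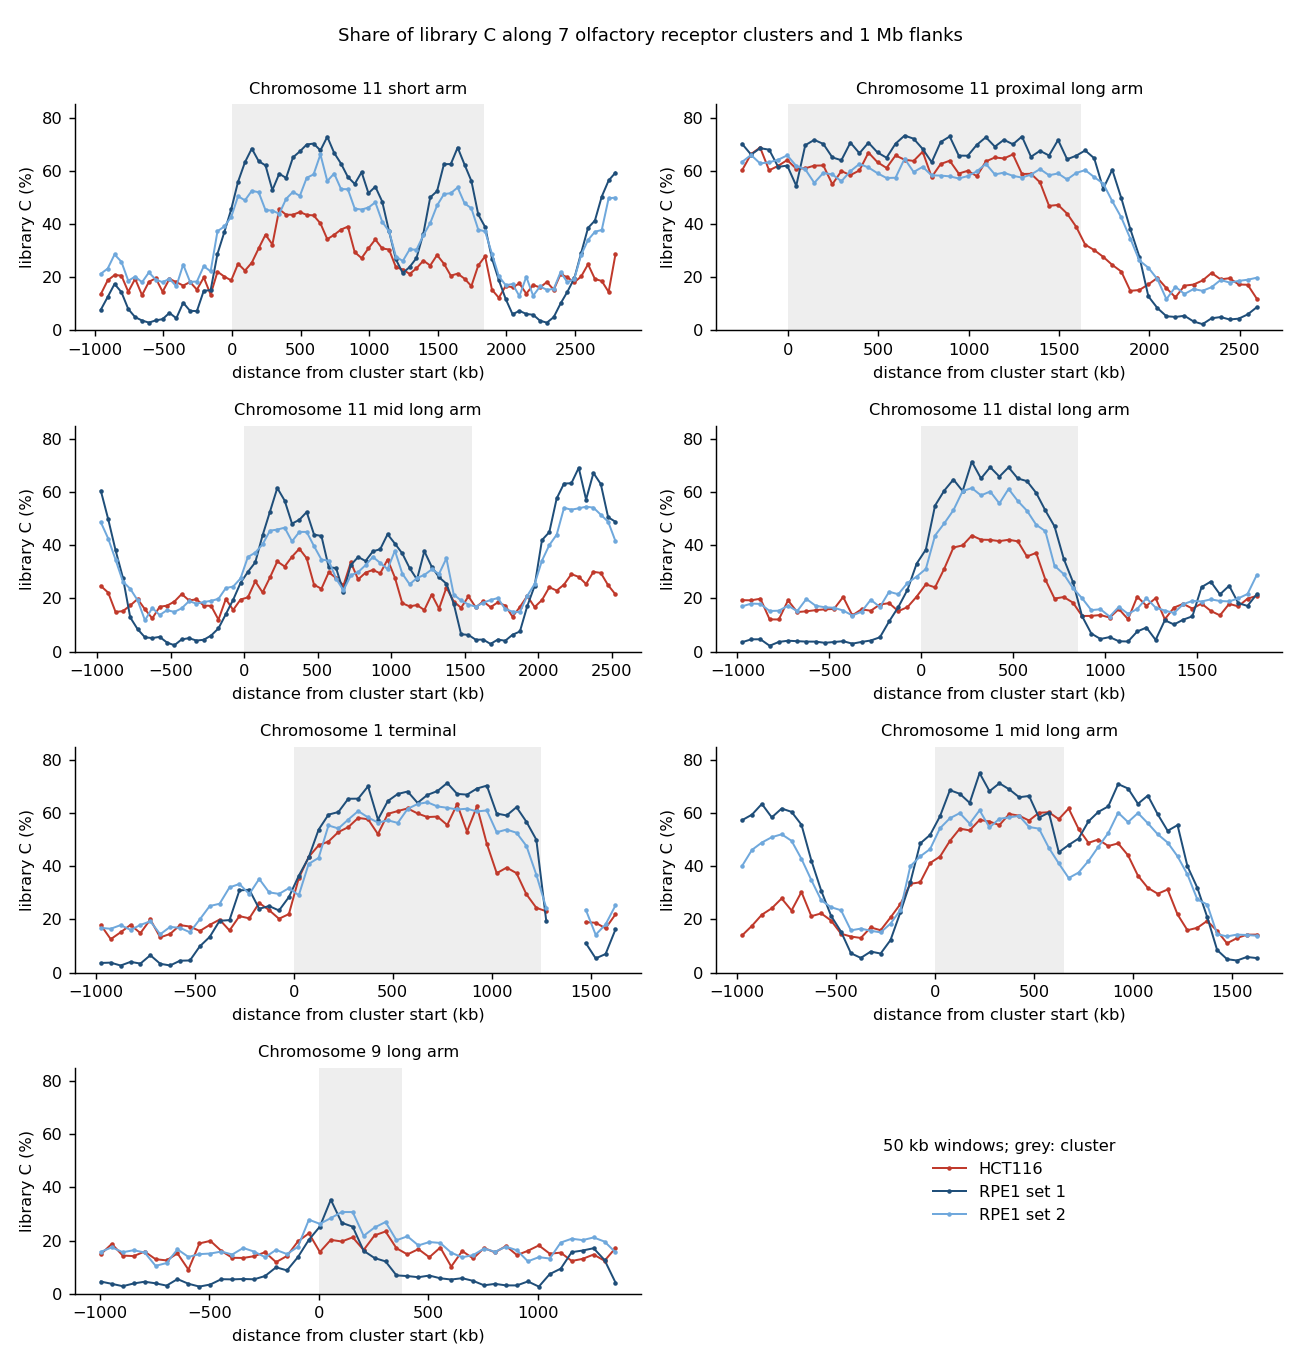
Share of library C (%, y axis) in 50 kb windows along each cluster (grey) and its 1 Mb flanks, by distance from the cluster's start in kb (x axis), in HCT116 and RPE1 sets 1 and 2. On the chromosome 11 short arm both RPE1 lines show a pair of humps around a trough at 28.2 and 31.0%, where HCT116 shows 1 low hump. Gaps are windows without enough reads or of another cluster.

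In the bands inside the cluster edges the mean C share was lower in HCT116 than in both RPE1 sets, and from 200 kb outside them it lay between the RPE1 sets. Averaged over edges, C was 43.0% ± 14.2 in HCT116, 61.3% ± 10.6 in RPE1 set 1 and 52.6% ± 8.78 in RPE1 set 2, in the band 200 to 300 kb inside the edge (SD over 12 edges). It was 18.6% ± 6.86 in HCT116 and 13.6% ± 16.8 and 22.2% ± 11.6 in RPE1 in the band 300 to 400 kb outside (13 edges). The place where the axis first stayed below 0 for a pair of adjacent windows, going outward from the cluster's highest window, could be had in all sets for 11 edges. HCT116 was nearer the centre than both RPE1 sets at 9 of them and level with 1 RPE1 set at the other 2. The RPE1 sets were within 50 kb of each other at 10 of the 11. The exception was the right edge of the short arm, where HCT116 and RPE1 set 2 crossed in the trough, 645 kb inside the cluster, and RPE1 set 1 crossed 105 kb outside it. Over these edges the median distance of the HCT116 crossing was 200 kb inward from that of RPE1 set 1 and 150 kb inward from that of RPE1 set 2. A profile that is lower inside the cluster also crosses 0 nearer the centre, so a lower level and a moved edge cannot be told apart from these crossings. Chromosome 9 gave no HCT116 crossing because its highest window was already below 0 there. Edges of 1 cluster share their windows and are not independent. Crossings at the edges of other regions were not counted, so the 9 of 11 is no result about receptor clusters.

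**Figure D4:**
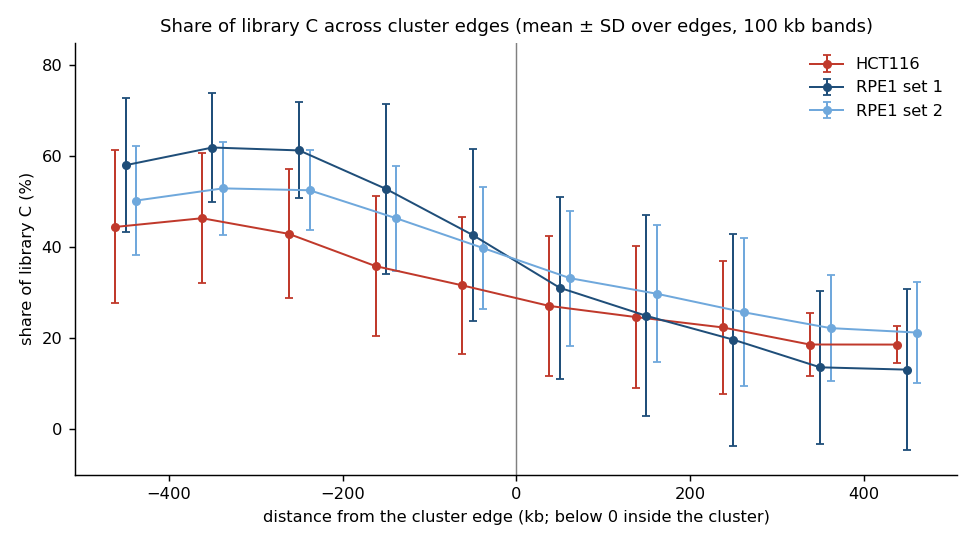
Mean share of library C (%, y axis) in 100 kb bands by distance from the cluster edge in kb (x axis, below 0 inside), with bars for the SD over 10 to 14 edges, in HCT116 and RPE1 sets 1 and 2. Inside the edge HCT116 lies below both RPE1 sets, at 43.0 against 61.3 and 52.6% from 200 to 300 kb inside, while from 300 to 400 kb outside it lies between them.

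On the leading axis the clusters split by line. HCT116 lay below both RPE1 sets by more than the gap between these in 5 clusters, and above both in 2. The short arm had 0.11 in HCT116 and 0.91 ± 0.030 in RPE1 (SD, n = 2), the distal long arm 0.31 and 0.97 ± 0.040, the chromosome 11 mid long arm -0.14 and 0.40 ± 0.063, and chromosome 9 -0.65 and -0.13 ± 0.052. The end of chromosome 1, with 1.04 and 1.12 ± 0.038, passed by less than 0.01 and did not pass with 20 kb windows, with 100 kb windows or without the fullest bins. The clusters in which HCT116 was higher were the proximal long arm, with 1.39 in HCT116 and 1.28 ± 0.028 in RPE1, and the chromosome 1 mid long arm, with 1.26 and 1.18 ± 0.013. This direction rested on the scale of the axis, since with normal ranks of autosomal windows in place of SD these 2 clusters gave differences of -0.20 and -0.27. How often other regions differ by more than the gap was not counted, so the 5 and 2 are no result about the clusters. Over autosomal windows HCT116 minus the RPE1 mean had an SD of 0.649, against 0.180 for the difference between the RPE1 sets.

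Over the cluster windows the mean difference between HCT116 and RPE1 was -0.36 SD, and over the 234 flank windows it was -0.25 SD, where autosomes are centred at 0 by construction. The flanks thus moved with the clusters, and how far the difference is one of the wider regions was not tested. HCT116 was at least 1 SD below both RPE1 sets in 13 of 162 windows (8.02%), against 7.77% of all kept windows, and at least 1 SD above in 0, against 3.26%. The share below is close to the background share and is no result about the clusters. The short arm held 9 of the 13, of which 5 lay right of the trough, and the other clusters held 4 of 126 windows.

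The lines had similar read levels in the clusters. Levels are scaled reads per window over the autosomal median, and the ratio of HCT116 to the RPE1 mean ran from 0.964 on the distal long arm to 1.09 on the proximal long arm. There the level was 1.25 in HCT116, 1.24 in RPE1 set 1 and 1.05 in RPE1 set 2, so HCT116 differed less from RPE1 set 1 than the RPE1 sets did from each other. Against single RPE1 sets the ratio over the 7 clusters ran from 0.902 to 1.18. None of the bins in the clusters was without reads, where 6.82% of autosomal bins were. That share counts every autosomal bin, gaps of the assembly included, so it does not show that the clusters were covered better than other sequence. Receptor genes and pseudogenes are close relatives of each other, and the sources used here do not say how reads were placed among near copies.

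For comparison, 6 smaller receptor clusters on other chromosomes, with spans set by hand, were measured in the same way. HCT116 was below both RPE1 sets on the axis in 6 of 6, a rule for which no share of other regions was taken. The flank rule was passed by 0 of 6, where 9.68 and 8.69% of the 1 Mb tiles were higher and lower. Led by C in all sets were 5 of their 67 windows (7.46%), against 27.0% of all kept windows. HCT116 was at least 1 SD below both RPE1 sets in 31 (46.3%), against 7.77%. Chromosome 7 had 14 of these 31 windows, all of its own, with a C share of 16.4% in HCT116 and 52.8 and 46.9% in RPE1. Chromosome 6 had 9, with 20.9% in HCT116 and 49.4 and 48.8% in RPE1, at a read level of 0.266 in HCT116 and 0.219 and 0.257 in RPE1 times the autosomal median. Without these clusters 8 of 41 windows remained. Chromosomes 3 and 12 had 22.2 and 23.1% in HCT116, 34.8 and 36.0% in RPE1 set 1 and 33.0 and 36.3% in RPE1 set 2. Chromosome 14 had 40.0% in HCT116 and 48.5 and 43.7% in RPE1, and chromosome 17 had 20.3% in HCT116, between the 18.3 and 28.4% of RPE1. The 5 windows led by C in all sets were on chromosome 14. Whether large and small clusters differ in these shares was not tested.

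**Figure D5:**
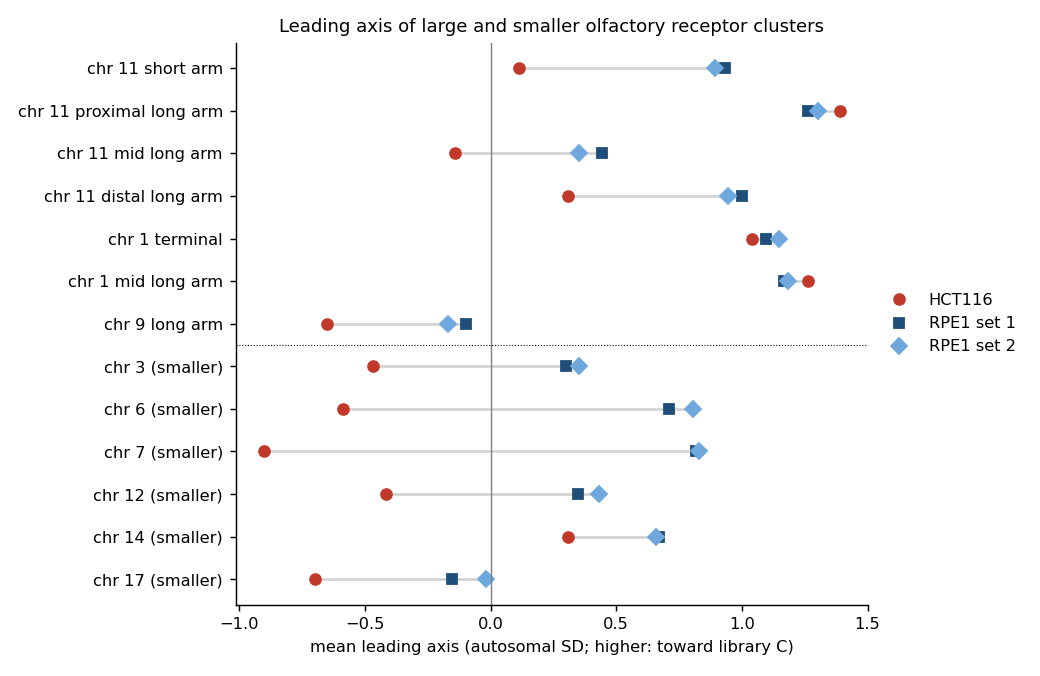
Mean leading axis (autosomal SD, x axis; higher lies toward library C) of the 7 large clusters and, under the dotted line, the 6 smaller ones, for HCT116 and RPE1 sets 1 and 2. HCT116 is right of the RPE1 sets at the chromosome 11 proximal and chromosome 1 mid long arms, a direction that turned with normal ranks, and left of them at the other clusters.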

How the data were processed

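Per the labels' protocols, EdU-labelled DNA from sorted S phase fractions was sequenced as single-end reads of 50 bases. The deposited values are raw read counts, whole numbers in 3 columns per set without header, over 3137207 bins that are mostly 1 kb long. Bowtie2, SAMtools 1.2, bedtools 2.25 and hg19 were used, per the submitters' processing notes, with no role given; the tables are named as free of duplicates, by a method not stated. Nothing ties a column to a fraction, so columns are libraries A, B and C.

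Counts on autosomes and chromosome X were added up in windows of 50 kb, which were kept if at least 25 bins held reads and there were 30 reads or more in each set and 50 over RPE1. Libraries were scaled to equal totals over kept windows. The axis used log2(scaled reads + 1). A window belongs to a cluster when its midpoint lies in the span. Totals per library were 8604034, 12276325 and 6639310 reads in HCT116, 13867005, 6170299 and 15854234 in RPE1 set 1, and 22930078, 16019553 and 16472082 in RPE1 set 2, which gave 361 to 4365 reads per cluster window and set. Wilson intervals take the scaled share at the number of reads and cover counting error only.

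The clusters, lists and rules were chosen with earlier results of these data known. All clusters were described, with the windows highest and lowest on the axis and the one farthest apart between lines. No test was run, since an exact test of 1 set against 2 could not give a p below 0.333. HCT116 is 1 set because its labels name 1 table; its early library carries no replicate number. The window call was tested on simulated data over 56728 windows, where it found 99.0% of 200 changed windows. These were windows rich in C whose A and C shares were swapped in HCT116. All sets were drawn from the shares of RPE1 set 1 with counting error only. The simulation thus does not say how often smaller differences are found, or how the call fares with replicate error. Alternatives were window size, windows wholly inside, scaling, fullest bins, thinning, flank size, axis scale, filter, threshold, and each RPE1 set left out. Python 3.11.15, numpy 2.4.6, pandas 2.3.3, statsmodels 0.14.6 and matplotlib 3.10.9 were used. RefSeq of GRCh38.p14 gave names, neighbours and start regions, and none of its coordinates was set on hg19.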

Additional observations from a re-analysis of the deposited data

Results flagged for a closer look

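In 3 of the smaller receptor clusters the share of library C differed from that of the flanks in opposite directions in the lines, and this difference was not tested. On chromosome 3 it was -12.1 points in HCT116 and 1.74 and 0.965 points in RPE1 sets 1 and 2. On chromosome 7 it was -12.3 points in HCT116 and 7.46 and 8.02 points in RPE1. On chromosome 14 it was -7.40 points in HCT116 and 7.36 and 2.89 points in RPE1. None of the 7 large clusters showed such a change of sign.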

How the results depend on the processing

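Across 72 alternative values of the 7 counts and summary ratios, 66 stayed and 6 moved. To stay was to lie within 1.5 times of the value given or, for the level ratio, within the spread. These values cannot change sign, so a reversal was not possible among them. The count of clusters with HCT116 higher on the axis was 0 with normal ranks and 0 with the share of C minus A; the cause was not tested. The percent of cluster windows with HCT116 at least 1 SD below both RPE1 sets was 4.32 with normal ranks, 36.4 with a threshold of 0.5 SD and 1.85 with 1.5 SD, the last 2 by construction. The shares of all kept windows were not taken under the alternatives, so these percents are no result about the clusters. The median level ratio of HCT116 over RPE1 was 0.976 without scaling, against 0.989. Of 329 values of single clusters 308 stayed within 1 SD of the RPE1 sets, 19 moved and 2 reversed, the axis differences of the proximal and chromosome 1 mid long arms, at -0.199 and -0.266 with normal ranks. The 112 alternative C shares were among those that stayed. Values with an RPE1 set left out, some of these shares included, move by less than that SD by construction. Their staying is no sign of stability either. With each RPE1 set left out, clusters led by C stayed at 3 and those passing the flank rule at 5. Those with HCT116 below or above stayed at 5 and 2. Windows led by C were 50.0 to 50.6% and windows below 8.02 to 11.7%. The gap between the RPE1 sets was kept in these calls. Leaving out a set only takes a condition away, so none of these values could fall, and their staying is no sign of stability. No paired analysis was possible because no column is tied to a fraction or a replicate partner, and nothing was tested. HCT116 has 1 set, and its depth limits cluster windows to 361 reads or more; thinning all libraries to one size gave 9.26% of windows below.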
